A study of Mus musculus with 17 samples.

Results

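The clustered protocadherins are cell surface proteins of the cadherin superfamily, and their genes stand in 3 neighbouring clusters, alpha (*Pcdha*), beta (*Pcdhb*) and gamma (*Pcdhg*), on mouse chromosome 18. All probe sets whose annotated symbol starts with Pcdha, Pcdhb or Pcdhg were taken as members: 26 of the 39137 probe sets of the array (0.0664%). Of these, 23 carry 1 gene symbol and are named by it here, namely *Pcdhb1* to *Pcdhb22* and *Pcdhga10*, and 3 are shared by several symbols and are given apart.

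Clustered protocadherins bind the same isoform on a facing cell, and they are best known from the nervous system, where they let the branches of a neuron recognise each other and support the survival of interneurons and the formation of synapses. Each *Pcdha* and *Pcdhg* transcript joins a variable exon, with its own promoter, to constant exons common to its cluster, whereas each *Pcdhb* gene is a single exon without a constant part. In single neurons most variable isoforms are switched on by a chance choice of promoters, under the control of CTCF, cohesin and DNA methylation, while the isoforms at the ends of the alpha and gamma clusters (*Pcdhac1*, *Pcdhac2* and *Pcdhgc3* to *Pcdhgc5*) are expressed more evenly.

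The data came from 17 whole mouse embryos of E12.5, whose RNA had been hybridised to Affymetrix 2.0 ST arrays with 1 array per sample: 4 CH homozygotes, 2 CH heterozygotes, 3 *Klf3* H275R homozygotes, 4 *Klf3* H275R heterozygotes and 4 WT. The study compared 2 mutant lines of *Klf3*, the gene of a zinc finger transcription factor of the Krüppel family that binds CACCC motifs and mostly represses its targets. In the CH line a gene trap cassette sits in the first intron of *Klf3*. The line came from 1 embryonic stem cell line and was kept on a mixed background of 2 mouse strains, C57BL/6J among them. The H275R line carries an ENU-induced point mutation that replaces a histidine of the first zinc finger and was largely on C57BL/6J. The labels give neither the line, the litter nor the sex of the WT embryos, and the series is described as matched by litter where that could be done. P-values therefore measure the spread between these embryos only, and the line, its strain background and the *Klf3* allele cannot be told apart in comparisons of CH with other embryos.

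Values are log2 units after RMA normalization, so a difference of 1 is a factor of 2 between arrays for the same probe set, and levels are not compared between probe sets. They ran from 2.24 to 13.74, array medians lay between 6.68 and 6.78, and pairs of arrays correlated at 0.981 to 0.994 over all probe sets. *Klf3* itself lay at 5.27 to 6.13 in CH homozygotes, 9.09 to 9.64 in CH heterozygotes, 9.33 to 9.65 in H275R homozygotes, 9.45 to 9.70 in H275R heterozygotes and 9.48 to 9.80 in WT embryos, so the labels of the CH homozygotes were borne out by the trapped gene. A probe set passed at a Benjamini-Hochberg adjusted p under 0.1 over all 39137 probe sets in limma. The mouse gene table holds 58 genes in the 3 clusters. All 22 *Pcdhb* genes had a probe set of their own, as against 0 of 14 *Pcdha* genes and 1 of 22 *Pcdhg* genes. A further 9 *Pcdha* and 9 *Pcdhg* genes, among them the 5 isoforms at the cluster ends, shared 1 probe set per cluster, and the other 17 genes are not listed in the platform annotation used here. The positions of the probes are not given, so whether a shared probe set reads constant or variable exons is unknown, and closely similar *Pcdhb* paralogs may share hybridisation.

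Among the probe sets measured, those of the beta cluster varied most over the arrays. No alpha gene, and of the gamma genes only *Pcdhga10*, had a probe set of its own. Variation of most single alpha and gamma isoforms could therefore not be seen. The *Pcdhb* genes were shifted together in single CH embryos, up in some and down in 1. *Pcdhb6* and *Pcdhb22* were higher in all CH homozygotes than in all WT and H275R embryos, but *Pcdhb22* passed against none of these groups. Against WT alone, 2.01% of all probe sets were higher without overlap, and the share against WT and H275R embryos together was not counted. *Pcdhb6* alone passed in CH homozygotes against WT.

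*Pcdhb6* encodes 1 of the beta isoforms and lies near the start of the cluster in gene order. Its log2 value was 8.49, 8.43, 8.52 and 8.91 in the 4 CH homozygotes, 6.75 and 9.07 in the 2 CH heterozygotes, 7.92, 7.93 and 8.04 in H275R homozygotes, 8.13, 7.95, 7.91 and 7.94 in H275R heterozygotes, and 8.01, 7.93, 7.92 and 7.87 in WT embryos. All CH homozygotes lay above all H275R and WT embryos, and the 2 CH heterozygotes held the lowest and the highest values of the 17 arrays. CH homozygotes averaged 8.59 ± 0.22 and WT embryos 7.93 ± 0.06 (SD, n = 4 each), a difference of 0.65 (SE 0.095, 95% confidence interval 0.45 to 0.86), or 1.57-fold, with an adjusted p of 0.0239 in limma. *Pcdhb6* was the only member of the 26 to pass in this comparison, where 0.0588% of all probe sets passed. In RNA of whole embryos, more cells of a type that expresses *Pcdhb6* and more of its RNA per cell cannot be told apart. The pass depended on the arrays fitted and on the test: limma gave an adjusted p of 0.6 when all 17 arrays were fitted and of 0.295 with the 8 arrays of both genotypes alone, and the methods' t-test, in which no spread is shared between probe sets, gave 0.665. It was kept when any 1 of the 15 arrays was left out, with differences of 0.55 to 0.71. Over all alternatives the adjusted p of *Pcdhb6* in this comparison ran from 0.0092 to 0.665, and it passed in 25 of 28.

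Against the H275R line the difference was of like size. CH homozygotes exceeded H275R homozygotes (7.96 ± 0.07, SD, n = 3) by 0.62 (SE 0.10, 1.54-fold, adjusted p = 0.061 in limma), and 1 of the 26 members passed against 0.164% of all probe sets (8 against 12.6% at an unadjusted p under 0.05). They exceeded H275R heterozygotes (7.98 ± 0.10, SD, n = 4) by 0.61 (SE 0.095, 1.52-fold, adjusted p = 0.0318 in limma), again as 1 member of 26, against 0.951% of all probe sets (5 against 14.6% at an unadjusted p under 0.05). The first of these passes was lost without H275R homozygote 1 (adjusted p = 0.188 in limma), H275R homozygote 2 (0.149) or CH homozygote 3 (0.1), and the second without H275R heterozygote 2 (0.106). Both were lost when all 17 arrays were fitted, at adjusted p of 0.495 and 0.401 in limma. Over all alternatives the adjusted p ran from 0.0281 to 0.495 against H275R homozygotes and from 0.0155 to 0.401 against H275R heterozygotes. The H275R mutation itself came with a difference from WT of 0.03 in homozygotes (confidence interval -0.19 to 0.25) and 0.05 in heterozygotes (-0.16 to 0.25). All of these comparisons share arrays, those with WT the same 4 WT embryos and those with CH the same 4 CH homozygotes.

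**Figure D1:**
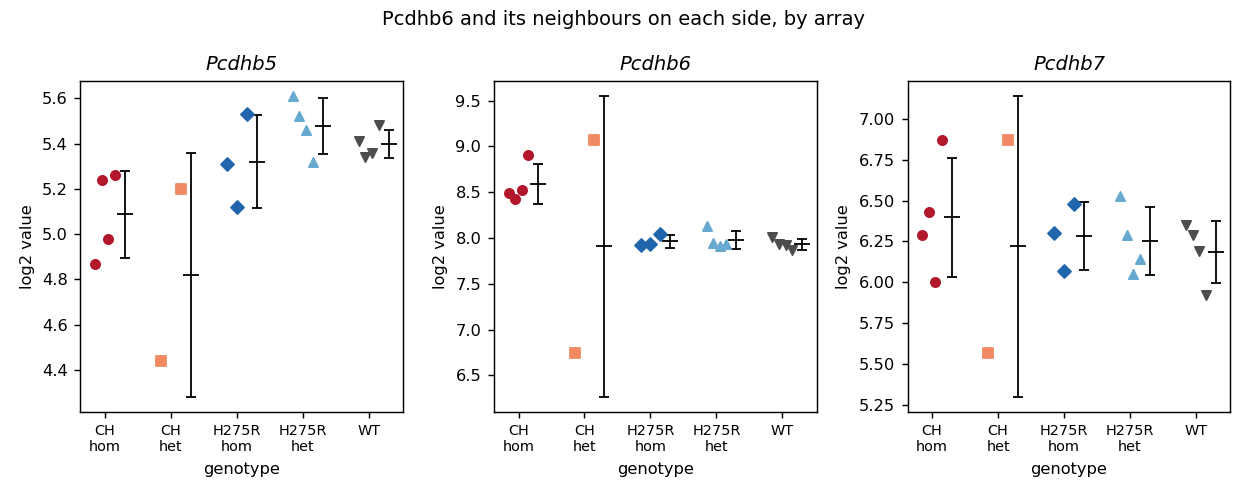
*Pcdhb6* between its neighbours *Pcdhb5* and *Pcdhb7*: log2 value (vertical axis, RMA) of each array by genotype, with the mean and SD of each group beside the points. All 4 CH homozygotes lie at 8.43 or above for *Pcdhb6* and all H275R and WT embryos at 8.13 or below, while for *Pcdhb5* the CH homozygotes lie below WT and for *Pcdhb7* the groups overlap.

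The genes on either side of *Pcdhb6* did not share one pattern. *Pcdhb3*, also a beta isoform, had log2 values of 6.04, 6.36, 6.58 and 6.71 in CH homozygotes, against 5.94, 5.55, 5.91 and 5.73 in WT embryos. All CH homozygotes lay above all WT embryos, but the difference of 0.64 (SE 0.14) did not pass (adjusted p = 0.192 in limma), and passed only when CH homozygote 1 was left out (0.77, adjusted p = 0.0528 in limma). *Pcdhb5*, directly before *Pcdhb6*, ran the other way, with 4.87, 5.24, 4.98 and 5.26 in CH homozygotes and 5.41, 5.34, 5.36 and 5.48 in WT embryos. These groups did not overlap either, and the difference of -0.31 (SE 0.10) had an adjusted p of 0.413 in limma.

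*Pcdhb7*, directly after *Pcdhb6*, overlapped between CH homozygotes (6.0 to 6.87) and WT embryos (5.92 to 6.35), with a difference of 0.21 (SE 0.17). The other near neighbours differed less: *Pcdhb2* by 0.14, *Pcdhb4* by 0.15, *Pcdhb8* by -0.01, *Pcdhb9* by 0.10 and *Pcdhb10* by 0.17 on the log2 scale, and in each of them CH homozygotes and WT embryos overlapped. Set against the median of the other 21 *Pcdhb* probe sets of the same array, *Pcdhb6* stood 2.09 ± 0.24 higher in CH homozygotes (SD, n = 4), 1.75 ± 0.63 in CH heterozygotes (n = 2), 1.72 ± 0.14 in H275R homozygotes (n = 3), 1.59 ± 0.08 in H275R heterozygotes (n = 4) and 1.73 ± 0.16 in WT embryos (n = 4). The mean gap was 0.37 wider in CH homozygotes than in WT embryos. Part of the mean *Pcdhb6* difference thus stayed after the shift common to the cluster was taken off, as a description with no test. Single embryos overlapped, with CH homozygote 2 at 1.87 and WT 4 at 1.95. In CH heterozygotes the mean gap was 0.02 wider, in H275R homozygotes 0.01 and in H275R heterozygotes 0.14 narrower than in WT embryos.

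Over the whole beta cluster, 19 of the 22 *Pcdhb* probe sets had a higher mean in CH homozygotes than in WT embryos, where 48.9% of all probe sets did, and the median difference was 0.23 against 0.00 over all probe sets. Differences ran from -0.31 (*Pcdhb5*) to 0.65 (*Pcdhb6*). After *Pcdhb6* and *Pcdhb3*, the largest were those of *Pcdhb11* (0.48, SE 0.19), *Pcdhb13* (0.44, SE 0.19) and *Pcdhb22* (0.41, SE 0.12). At an unadjusted p under 0.05, 7 of the 26 members were called, against 8.95% of all probe sets. The 4 CH homozygotes all lay above the 4 WT embryos in 6 members (*Pcdhb3*, *Pcdhb6*, *Pcdhb12*, *Pcdhb19*, *Pcdhb21* and *Pcdhb22*), as in 2.01% of all probe sets, and all below in 1 (*Pcdhb5*), as in 2.09%.

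The embryos behind these means differed widely. *Pcdhb11* read 5.69, 6.24, 5.48 and 6.66 in CH homozygotes, against 5.62, 5.50, 5.67 and 5.37 in WT embryos, and CH homozygotes 2 and 4 were the highest, with CH homozygote 1 just above the WT values and CH homozygote 3 within them. *Pcdhb13* was also highest in CH homozygotes 2 and 4, with 6.62, 7.0, 6.52 and 7.57 in CH homozygotes and 6.69, 6.38, 6.66 and 6.22 in WT embryos. *Pcdhb22* lay at 7.01, 7.21, 7.18 and 7.44 in CH homozygotes and at 6.91, 6.88, 6.91 and 6.51 in WT embryos, and every CH homozygote lay above all WT embryos. It also lay above the H275R homozygotes (6.50 to 6.91) and the H275R heterozygotes (6.63 to 6.94), by 0.49 (adjusted p = 0.18 in limma) and 0.36 (adjusted p = 0.199 in limma), and passed in neither.

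The spread of the *Pcdhb* genes was widest in the CH homozygotes among the genotypes with 3 or more embryos. The median SD over the 22 *Pcdhb* probe sets was 0.30 in CH homozygotes, where that over all probe sets was 0.15. It was 0.21 in H275R homozygotes (0.12 over all probe sets), 0.12 in H275R heterozygotes (0.12) and 0.18 in WT embryos (0.13). The SD of *Pcdhb6* was low in H275R homozygotes (SD 0.07), H275R heterozygotes (0.10) and WT embryos (0.06), and higher in CH homozygotes (0.22).

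Between H275R and WT embryos no member passed. None of the 26 members passed in H275R homozygotes against WT in limma, where 0.0128% of all probe sets passed, nor by the methods' t-test, and 1 was called at an unadjusted p under 0.05 (5.06% of all probe sets). That 1 was *Pcdhga10*, with 10.80, 10.54 and 10.84 in H275R homozygotes and 11.00, 10.89, 10.93 and 11.19 in WT embryos, a difference of -0.27 (SE 0.094, adjusted p = 0.912 in limma) between groups that did not overlap. The share of all probe sets without overlap was not counted for this comparison, so that separation is a description only. The *Pcdhb* differences ran from -0.18 (*Pcdhb21*) to 0.20 (*Pcdhb8*), with a median of 0.03 and 14 of 22 above 0.

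In H275R heterozygotes against WT, 0 of the 26 passed in limma or by the methods' t-test, as did 0.0% of all probe sets in limma, and 0 were called at an unadjusted p under 0.05 (3.87% of all probe sets). The *Pcdhb* differences were small and mostly of one sign, 21 of 22 above 0 with a median of 0.09, where 46.8% of all probe sets were above 0. The largest were those of *Pcdhb8* (0.21, SE 0.19), *Pcdhb4* (0.20, SE 0.14) and *Pcdhb18* (0.18, SE 0.16). WT 4 lay below the WT mean in 19 of the 22, as in *Pcdhb8*, which read 7.54, 7.68, 7.57 and 6.79 in the 4 WT embryos.

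**Figure D2:**
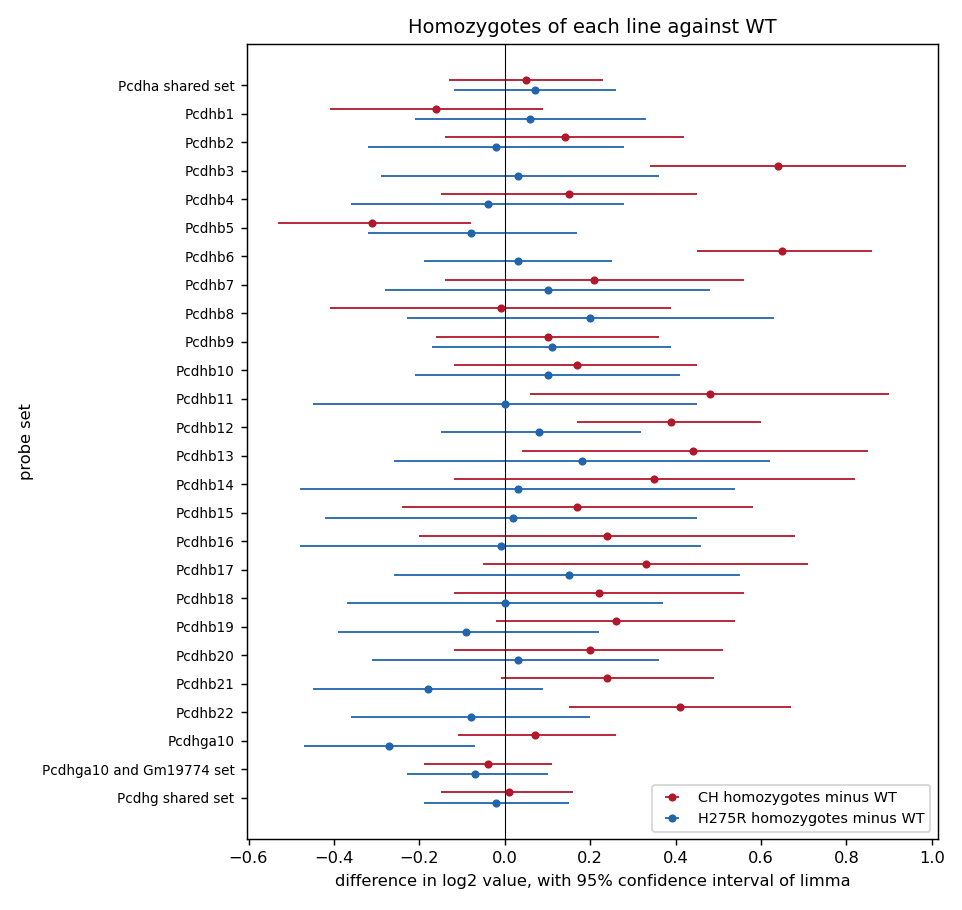
Difference in log2 value (horizontal axis) for the 26 probe sets in gene order, alpha to gamma from top to bottom, in CH homozygotes minus WT (n = 4 and 4) and H275R homozygotes minus WT (n = 3 and 4), with the 95% confidence interval of limma, both against the same WT arrays. CH differences reach 0.64 for *Pcdhb3* and 0.65 for *Pcdhb6*, H275R differences of *Pcdhb* genes stay between -0.18 and 0.20, and the probe sets of the alpha and gamma clusters lie close to 0 except *Pcdhga10* in H275R homozygotes.

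The 2 CH heterozygotes stood at opposite ends of the beta cluster. CH heterozygote 1 was the lowest of the 17 arrays in 21 of the 22 *Pcdhb* probe sets, as in 7.08% of all probe sets, and its median deviation from the WT mean over the cluster was -0.85, with single genes from -1.57 to 0.15. CH heterozygote 2 was the highest of the 17 arrays in 6 of them, as in 5.81% of all probe sets, with a median deviation of 0.55. CH homozygote 4 held the highest value in 11 (9.11% of all probe sets) with a median deviation of 0.57. The median deviation was -0.04, 0.43 and 0.03 in CH homozygotes 1 to 3, -0.01, -0.11 and 0.15 in H275R homozygotes 1 to 3, 0.15, 0.03, 0.13 and 0.08 in H275R heterozygotes 1 to 4, and 0.12, -0.04, 0.11 and -0.15 in WT embryos 1 to 4. CH embryos thus lay at both extremes, and all 11 H275R and WT embryos lay within 0.15 of the WT mean.

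**Figure D3:**
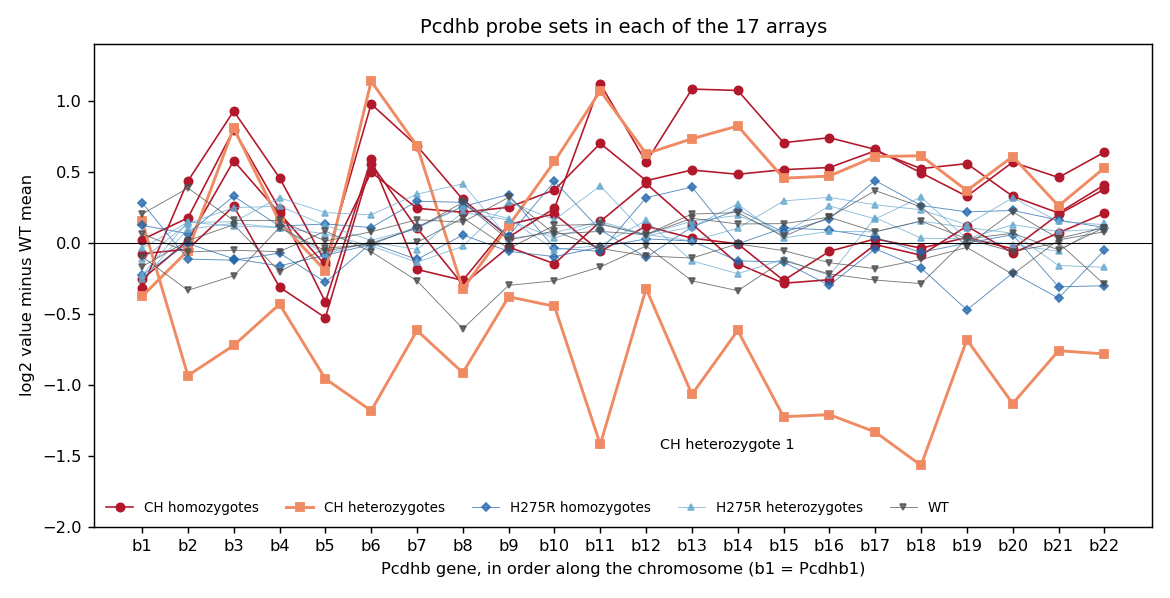
Deviation of each *Pcdhb* probe set from the mean of the 4 WT embryos (vertical axis, log2 units), in gene order along the horizontal axis, with 1 line for each of the 17 arrays and colours and symbols by genotype. CH heterozygote 1 runs below the other arrays from *Pcdhb2* to *Pcdhb22*, and CH homozygotes 2 and 4 and CH heterozygote 2 run above them in most of the second part of the cluster.

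The gap between the 2 CH heterozygotes was largest in *Pcdhb11*, with 4.12 in CH heterozygote 1 and 6.61 in CH heterozygote 2, a difference of 2.49 or 5.63-fold. *Pcdhb6* came next with 6.75 and 9.07 (2.32, 4.98-fold), and then *Pcdhb18* with 5.43 and 7.61 (2.19, 4.55-fold). These are values of 2 embryos and no test was made on them. The gap was 1 or more in 15 of the 22 *Pcdhb* probe sets, as in 1.35% of all probe sets, with a median of 1.31. *Pcdhb1*, the first gene of the cluster, was the only one with the gap the other way, at 5.48 in CH heterozygote 1 and 4.95 in CH heterozygote 2.

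Genes on either side of the beta cluster had smaller gaps than most genes of the cluster. The *Pcdha* shared set differed by 0.16 between the 2 embryos, *Pcdhga10* by -0.01 and the *Pcdhg* shared set by 0.05. Of the 39 other genes with a probe set that lie between the clusters or within 1 Mb of them, 0 reached a gap of 1, and they ran from -0.72 (*Tmco6*) to 0.42. *Slc25a2* and *Taf7*, the genes between the beta and gamma clusters, read 5.91 and 6.92 in CH heterozygote 1 and 5.90 and 6.71 in CH heterozygote 2.

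**Figure D4:**
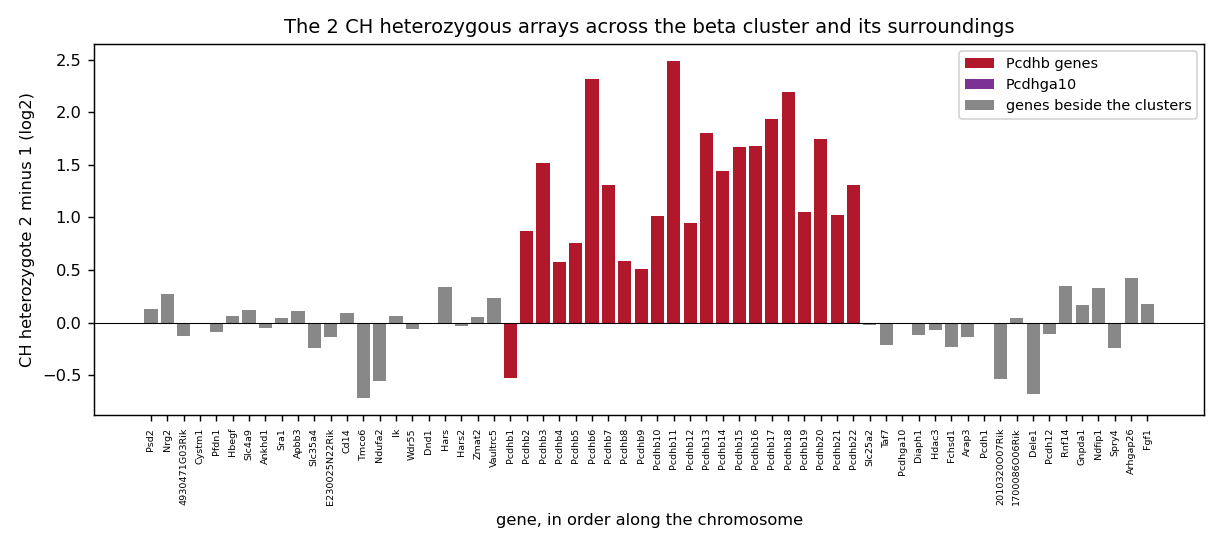
CH heterozygote 2 minus CH heterozygote 1 in log2 units (vertical axis) for the *Pcdhb* genes, *Pcdhga10* and 39 genes beside the clusters, in gene order along the horizontal axis at equal steps. The *Pcdhb* bars lie above 0 from *Pcdhb2* to *Pcdhb22*, up to 2.49, and below 0 in *Pcdhb1*, and the bars beside the clusters lie between -0.72 and 0.42.

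With 2 embryos so far apart, the mean of the CH heterozygotes said little. None of the 26 members passed against WT in limma, where 0.00511% of all probe sets did, nor by the methods' t-test, and 3 (*Pcdhb2*, *Pcdhb5* and *Pcdhb8*) were called at an unadjusted p under 0.05, against 5.94% of all probe sets. *Pcdhb6* differed by -0.02 with a confidence interval of -0.84 to 0.79. Without CH heterozygote 1 it was 1.14 above WT (adjusted p = 0.02 in limma), and without CH heterozygote 2 it was 1.18 below (adjusted p = 0.005 in limma), each time with 1 embryo that was assumed to vary as the other groups did. In these fits 1 of the 26 members passed without CH heterozygote 1 (0.0153% of all probe sets) and 3 passed without CH heterozygote 2 (0.0818%). *Pcdhb5* was lower in both CH heterozygotes (4.44 and 5.20) than in all WT embryos (5.34 to 5.48), by -0.58 (SE 0.17, adjusted p = 0.627 in limma). How many of all probe sets were separated in this way was not counted.

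Within the CH line, 0 of 26 members passed between homozygotes and heterozygotes in limma, against 0.00511% of all probe sets, nor by the methods' t-test, and 4 were called at an unadjusted p under 0.05 (5.44% of all probe sets). *Pcdhb6* was 0.68 higher in CH homozygotes, with a confidence interval of -0.14 to 1.49, and *Pcdhb17* and *Pcdhb18* were 0.70 higher (SE 0.37 and 0.39). Without CH heterozygote 2 the difference of *Pcdhb6* was 1.84 (adjusted p = 0.000135 in limma) and 7 of the 26 members passed, against 0.0843% of all probe sets in a fit that rests on 1 CH heterozygote, whereas without CH heterozygote 1 it was -0.48 (adjusted p = 0.995 in limma) and 0 members passed in limma, against 0.0204% of all probe sets.

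The lines were also compared as a whole, CH embryos against H275R embryos with their genotypes weighted equally and WT left out. Here 2 of the 26 members passed in limma, against 4.81% of all probe sets, a share too near the background to read as a result on the family, and 3 were called at an unadjusted p under 0.05 (17% of all probe sets). *Pcdhga10*, a gamma isoform, passed as higher in the CH line: it read 11.00, 11.13, 11.10 and 11.06 in CH homozygotes, 11.15 in both CH heterozygotes, 10.80, 10.54 and 10.84 in H275R homozygotes, and 10.80, 10.83, 11.04 and 10.97 in H275R heterozygotes. CH values lay at 11.00 or above and overlapped with H275R heterozygote 3, and the difference was 0.29 (SE 0.069, 1.22-fold, adjusted p = 0.0448 in limma). It was lost without CH heterozygote 2 (adjusted p = 0.146 in limma), and over all alternatives the adjusted p ran from 0.0218 to 0.969. The second *Pcdhga10* probe set, shared with *Gm19774*, ranged from 12.21 to 12.51 over the 17 arrays and passed in no comparison.

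*Pcdhb5* passed as lower in the CH line, at 4.87, 5.24, 4.98 and 5.26 in CH homozygotes, 4.44 and 5.20 in CH heterozygotes, 5.31, 5.12 and 5.53 in H275R homozygotes and 5.61, 5.52, 5.46 and 5.32 in H275R heterozygotes. Only H275R homozygote 2 lay within the CH values, and the difference was -0.45 (SE 0.12, adjusted p = 0.0603 in limma). Without CH heterozygote 1 the difference was -0.26 (adjusted p = 0.187 in limma). The pass was also lost without CH homozygote 3, H275R homozygote 1 or 3, or H275R heterozygote 1 or 2, at adjusted p of 0.103 to 0.122 in limma. *Pcdhb8* stood just outside the threshold with a difference of -0.52 (SE 0.16, adjusted p = 0.104 in limma). *Pcdhb6* did not pass between the lines (0.28, confidence interval -0.27 to 0.82). Without CH heterozygote 1 it was 0.85 higher in the CH line (adjusted p = 0.00125 in limma), and 6 of the 26 members passed, against 6.28% of all probe sets in the same fit, namely *Pcdhb3*, *Pcdhb6*, *Pcdhb11*, *Pcdhb12*, *Pcdhb22* and *Pcdhga10*. Without CH heterozygote 2, 2 of the 26 passed, *Pcdhb5* and *Pcdhb18*, both lower in the CH line, against 0.769% of all probe sets.

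Over all 17 arrays, the members with the widest spread were *Pcdhb11* (SD 0.55), *Pcdhb6* (0.51) and *Pcdhb18* (0.49), and only 1.40%, 2.17% and 2.59% of all probe sets had an SD at or above theirs. The narrowest were the *Pcdhg* shared set (0.08), the set of *Pcdhga10* and *Gm19774* (0.08) and the *Pcdha* shared set (0.11). Without CH heterozygote 1 the SD of *Pcdhb11* was 0.40, of *Pcdhb6* 0.38 and of *Pcdhb18* 0.26. The isoforms of the cluster ends, *Pcdhac1* and *Pcdhac2* in the *Pcdha* shared set and *Pcdhgc3* to *Pcdhgc5* in the *Pcdhg* shared set, were measured only there. The *Pcdha* shared set differed from WT by 0.05 (SE 0.084) and the *Pcdhg* shared set by 0.01 (SE 0.074) in CH homozygotes, and all genotypes overlapped in both.

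Markers of other cell types varied along with the beta cluster in the CH embryos. The 8 cartilage genes had a mean log2 value of 8.19, 9.37, 8.15 and 9.14 in CH homozygotes, 8.11 and 8.96 in CH heterozygotes, 8.42 to 8.63 in H275R embryos and 8.06 to 8.59 in WT embryos. CH homozygotes 2 and 4 and CH heterozygote 2, whose *Pcdhb* genes were high, were thus the 3 arrays above 8.63, whereas CH heterozygote 1, whose *Pcdhb* genes were low, lay close to CH homozygotes 1 and 3 and WT 4. The 3 embryonic globin genes averaged 9.87, 8.72, 10.08 and 8.85 in CH homozygotes, 10.48 and 9.43 in CH heterozygotes, 9.60 to 10.06 in H275R embryos and 9.73 to 10.40 in WT embryos, so that the same 3 arrays were the lowest.

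The 7 neural progenitor genes, all measured, averaged 9.95, 9.29, 9.57 and 9.08 in CH homozygotes, 9.83 and 9.07 in CH heterozygotes, 9.72 to 9.90 in H275R embryos and 9.66 to 9.76 in WT embryos, again lowest in those 3. The mean of the 12 neuronal genes, in contrast, held close levels. It was 10.26 to 10.33 in CH homozygotes and 10.17 and 10.19 in CH heterozygotes. H275R embryos lay at 10.30 to 10.46 and WT embryos at 10.18 to 10.40. Single neuronal genes moved in opposite directions behind this mean. *Gap43* was highest in the same 3 arrays, at 9.68 to 9.91, where the other arrays lay at 9.51 or below. *Nefm* was lowest in them, at 8.21 to 8.29, where the other arrays lay at 8.57 or above. Between the lines, where 4.81% of all probe sets passed, 3 of the 12 passed as lower in CH embryos: *Snap25*, a protein of synaptic vesicle fusion (-0.65), *Elavl3*, an RNA-binding protein of neurons (-0.27), and *Ina*, a neurofilament subunit (-0.30). Of the 7 progenitor genes 1 passed as lower in the CH line, *Nes*, an intermediate filament of neural progenitors (-0.51). Of the 8 cartilage genes *Sox9*, a regulator of cartilage formation, passed as lower (-0.58), while 5 of the 8 had differences above 0, with a median of 0.11 and none of them past the test. None of the 12 neuronal, 7 progenitor, 8 cartilage or 3 globin genes passed in CH homozygotes against WT in limma, where 2, 1, 3 and 2 of them had an unadjusted p under 0.05, against 8.95% of all probe sets. In fits chosen after the data had been seen, *Pcdhb6* passed in CH homozygotes against WT with the cartilage mean of each array as a covariate (0.62, adjusted p = 0.0412 in limma) and with the neuronal mean (0.66, adjusted p = 0.0432 in limma). With the neuronal mean its passes against H275R homozygotes (0.65, adjusted p = 0.24 in limma) and H275R heterozygotes (0.63, adjusted p = 0.357 in limma) were lost at differences of like size. Between the lines, 0 members passed with that covariate. The neuronal means of CH and H275R embryos overlapped only from 10.30 to 10.33, so the covariate went closely with the line. The share of all probe sets that passed in these fits is not given here, and the part of neuronal content in the losses was not tested. The part of cell makeup or stage in the shifts of the beta cluster as a whole was not tested. The 3 Y-linked genes averaged 9.55 to 9.96 in CH homozygote 3, CH heterozygote 1, H275R homozygote 1 and WT 2 and 4.13 to 4.54 in the other arrays. The 2 CH heterozygotes therefore differed in sex as well as in their *Pcdhb* levels, and the part of sex in that gap was not tested.

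**Figure D5:**
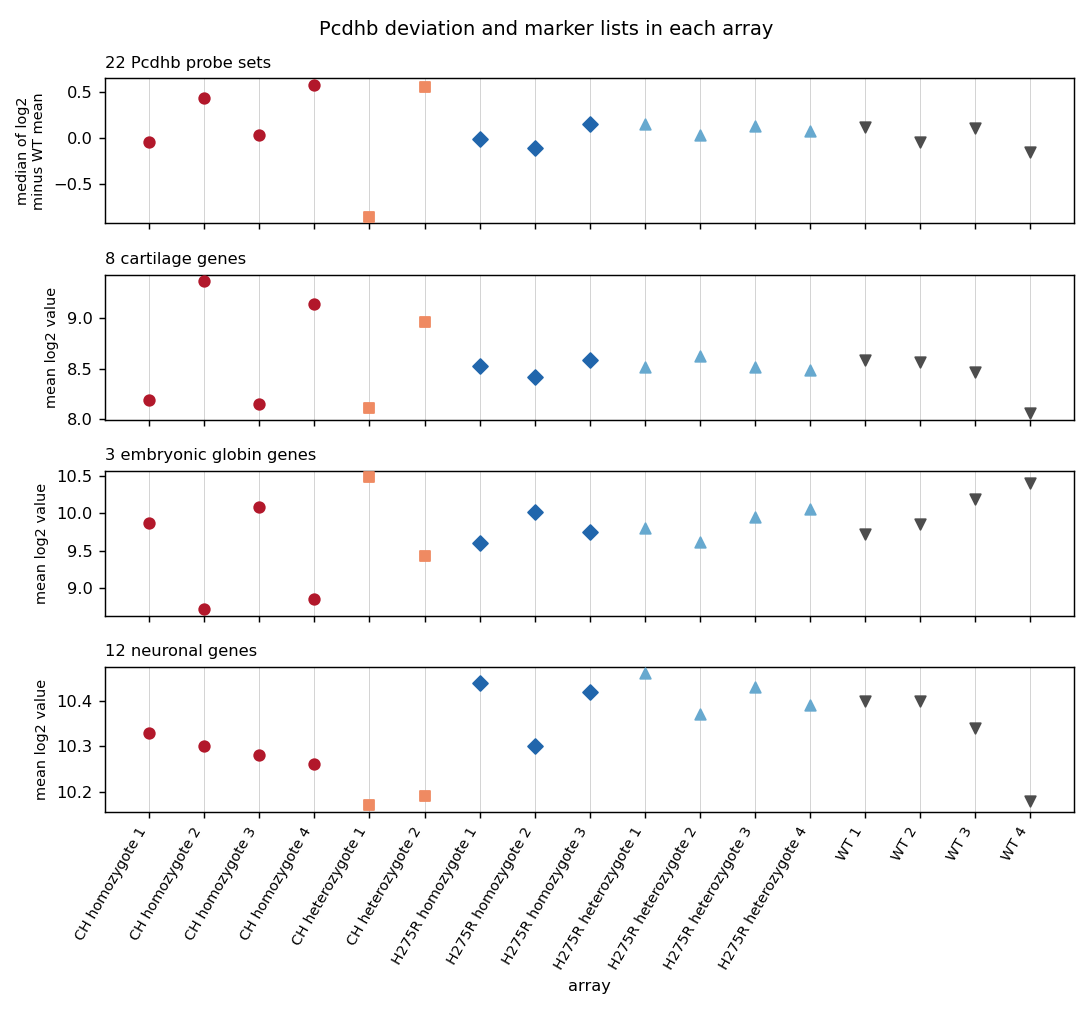
Median deviation of the 22 *Pcdhb* probe sets from the WT mean (top panel, log2 units) and mean log2 value of 8 cartilage, 3 embryonic globin and 12 neuronal genes (lower panels) in each of the 17 arrays along the horizontal axis, coloured by genotype. CH homozygotes 2 and 4 and CH heterozygote 2 are highest in the *Pcdhb* and cartilage panels and lowest in the globin panel, and CH heterozygote 1 is lowest in the *Pcdhb* panel at -0.85.

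Genes tied to the family by function held no member that passed. Of 12 nonclustered protocadherins, which are single genes outside the 3 clusters, 0 passed in any of the 8 comparisons in limma. Their median difference in CH homozygotes against WT was 0.02, with the largest at *Pcdh11x* (0.22), *Pcdh1* (-0.14) and *Pcdh8* (-0.12). Their mean log2 value was lowest of all arrays in CH heterozygote 1 (8.18) and highest in CH heterozygote 2 (8.48). It was 8.47 in CH homozygote 2, 8.39 in CH homozygote 4 and 8.27 to 8.41 in H275R and WT embryos. From CH heterozygote 1 to 2, *Pcdh9* rose from 7.88 to 8.87 and *Pcdh11x* from 7.52 to 8.44. *Pcdh8* fell from 7.79 to 7.3, and *Pcdh12* and *Pcdh18* fell slightly. A gap between these 2 embryos was thus not confined to the beta cluster. Of 15 regulators of the clusters, 0 passed in any comparison either, with a median of 0.04 in CH homozygotes against WT and *Ctcf* (0.10, SE 0.078), the insulator protein, *Smc1a* (0.08), a cohesin subunit, and *Nipbl* (-0.08), the cohesin loader, among the largest. *Smchd1*, a chromatin protein that silences these clusters in mouse cells, differed by 0.06 (SE 0.074), and *Dnmt3b*, the methyltransferase that marks their promoters, by -0.08 (SE 0.15). Of 10 intracellular partners 8 were measured and 0 passed, with *Wasf1*, a subunit of the WAVE complex that binds protocadherins, at -0.24 (SE 0.11) and *Ret*, a receptor kinase, at 0.15 (SE 0.088). In CH homozygotes against WT, the count at an unadjusted p under 0.05 was 0 nonclustered protocadherins, 0 regulators and 1 partner, against 8.95% of all probe sets. Over the 8 comparisons it reached at most 2, 2 and 3, where the share of all probe sets ran from 3.87% to 17%.

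Of the 39 genes beside the clusters, 0 passed in CH homozygotes against WT in limma with a median difference of 0.02, and 4 had an unadjusted p under 0.05, a share near the 8.95% of all probe sets. Between the lines 2 of the 39 passed, a share near the 4.81% of all probe sets, and their values are given as a description. *Tmco6* read 7.85, 7.95, 7.60 and 7.62 in CH homozygotes, 8.16 and 7.44 in CH heterozygotes, 8.48 to 8.62 in H275R homozygotes, 8.25 to 8.66 in H275R heterozygotes and 7.85 to 8.47 in WT embryos, with WT 4 the lowest of the WT. It was lower in the CH line by -0.73 (adjusted p = 0.0179 in limma), with no overlap between the lines, a feature not counted over all probe sets. *Ndufa2*, a subunit of respiratory complex I, was also lower in the CH line, by -0.41 (adjusted p = 0.0262 in limma), with 8.97 to 9.53 in CH embryos and 9.60 to 9.76 in H275R embryos. Within 5 Mb, 1 of 109 genes passed in CH homozygotes against WT (0.0588% of all probe sets), namely *Prelid2* with 0.43 (adjusted p = 0.0252 in limma).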

How the data were processed

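The authors deposited log2 values after RMA normalization of 17 Affymetrix 2.0 ST arrays, and their methods name Partek Genomic Suite as the software. The study used a false discovery rate of 0.1. The sources used here do not name their genome build or annotation. No filter was set, and every column of values was mapped to a sample. Probe sets were named from the platform annotation, and gene order came from a RefSeq gene table (GRCm38.p6), with no coordinate printed. Sequences of the members are not shown.

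Tests were those of limma 3.58.1 under R 4.3.3, by lmFit and eBayes with a mean for each genotype. The 15 arrays without CH heterozygotes were fitted together, or all 17 where CH heterozygotes or both lines were compared. Benjamini-Hochberg adjustment ran over 39137 probe sets, with a threshold of 0.1. As an alternative, Student's test, which the study names for its statistics in general, was run on the same values and is called the methods' t-test. Between the lines it was a t-test on the equally weighted means of the 4 CH and H275R genotypes, with their spread pooled.

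The members, *Pcdhb6* among them, and the gene lists were chosen with earlier results of these data known. Named were the members that passed, the 4 *Pcdhb* genes on each side of *Pcdhb6*, up to 5 members with the largest differences in a comparison, the 3 with the widest and the narrowest spread, the isoforms of the cluster ends and, of the other lists, those that passed, otherwise up to 3 of the largest differences. *Smchd1*, *Dnmt3b*, *Nipbl*, *Ret*, *Slc25a2*, *Taf7* and members named for an array were added after their values had been seen. Where a listed gene had more than 1 probe set, the brightest on average stood for it. The fit was tested on simulated data with 200 changed probe sets. Alternatives were other fits, filters and normalizations, each array left out in turn and, chosen once the data had been seen, the cartilage and neuronal means as covariates. The number of arrays limits the precision.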

Additional observations from a re-analysis of the deposited data

Results flagged for a closer look

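In 5 of the 78 combinations of a member and a genotype with 4 embryos, 1 array stood far from the other 3 (6.41%). Chance gives about 5% for independent combinations, but these share arrays and members shift together, and most of the 5 came from WT 4. WT 4 was low in *Pcdhb8* (6.79, others 7.54 to 7.68), in *Pcdhb10* (4.84, others 5.17 to 5.23) and in *Pcdhb22* (6.51, others 6.88 to 6.91). H275R heterozygote 2 was high in *Pcdhb12* (5.75, others 5.64 to 5.65), and H275R heterozygote 4 was low in *Pcdhb22* (6.63, others 6.90 to 6.94).

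*Pcdhb6* stood out because its difference from WT in CH homozygotes differed from that in the H275R line, as tested directly: by 0.62 from H275R homozygotes (adjusted p = 0.061 in limma) and by 0.61 from H275R heterozygotes (adjusted p = 0.0318 in limma), with all 4 CH homozygotes above all 7 H275R embryos. The line and the allele cannot be told apart in either.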

How the results depend on the processing

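Of the members that passed in CH homozygotes against WT (1), 0 were left with all 17 arrays, with only the genotypes compared and by the methods' t-test, where *Pcdhb6* kept its difference of 0.65 at adjusted p of 0.6, 0.295 and 0.665. Leaving out 1 array gave 1 to 2 members and *Pcdhb6* differences of 0.55 to 0.71. Against H275R homozygotes 0 members passed with all 17 arrays, only the genotypes compared, the methods' t-test, the replicate block, the neuronal mean as a covariate or an adjusted p under 0.05, and the *Pcdhb6* difference of 0.62 was 0.60 with the block (adjusted p = 0.112) and 0.65 with the neuronal mean (0.24). Leaving out 1 array gave 0 to 3 members and differences of 0.51 to 0.67. Against H275R heterozygotes 0 members passed with all 17 arrays, only the genotypes compared, the methods' t-test or the neuronal mean, with *Pcdhb6* at 0.61 (adjusted p of 0.128 with only the genotypes compared and 0.232 by the t-test) or 0.63 (0.357 with the neuronal mean), and 2 passed, *Pcdhb5* and *Pcdhb6*, with probe sets of 1 gene symbol or the cartilage mean as a covariate. Leaving out 1 array gave 0 to 2 members and differences of 0.50 to 0.66.

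Between the lines 1 member was left by the methods' t-test or at an adjusted p under 0.05 and 0 with the neuronal mean. Leaving out 1 array gave 1 to 6, and *Pcdhb6* differences of -0.30 to 0.85. Leaving out 1 array gave 0 to 3 members and *Pcdhb6* differences of -1.18 to 1.14 in CH heterozygotes against WT, and 0 to 7 members and -0.48 to 1.84 in CH homozygotes against CH heterozygotes, where CH heterozygote 1 or 2 set the ends. Values near 0 changed sign: *Pcdhb6* in CH heterozygotes against WT was 0.00026 with the replicate block and 0.10 with the neuronal mean, and leaving out 1 array gave -0.0082 to 0.058 in H275R homozygotes and -0.00071 to 0.075 in H275R heterozygotes against WT. *Pcdhb6* against the mean in place of the median of the other *Pcdhb* genes was -0.05 in H275R heterozygotes relative to WT. Of genes within 5 Mb, 1 passed in CH homozygotes against WT. The causes of these changes were not tested. With the same replicate number as a block, 1 pass of *Pcdhb6* was lost and 3 members in place of 2 passed between the lines. The labels do not say whether a shared number marks a shared litter. Deviations of 29 pairs with a shared number correlated at -0.143 to 0.429 (median 0.0101), with 8 over 0.1. Those of 85 pairs without one correlated at -0.467 to 0.467 (median 0.00268), with 20 over 0.1. The deviations of the 2 CH heterozygotes from their common mean are exact opposites, so each array correlates with both at the same size and opposite sign. Both ends of the range without a shared number, and the 0.429 with one, come from pairs with a CH heterozygote. Shared numbers among H275R and WT embryos ran from -0.113 (H275R homozygote 2 with WT 2) to 0.329 (H275R homozygote 3 with H275R heterozygote 3). Whether the numbers pair the embryos was not tested. The number of arrays limits the precision of every value.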
